A study of Homo sapiens with 6 samples.

Results

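The 30 genes described here are metabolic and effector targets of the transcription factor ATF4 together with the enzymes of serine, folate one-carbon and proline synthesis. They were chosen by symbol, with earlier results of these data known. Each was found as 1 of the 20263 rows of a table of gene counts. The counts come from RNA sequencing of HCCLM3 cells, a human hepatocellular carcinoma line. The groups were cells given CC-885 for 24 h and cells given the solvent DMSO, with 3 libraries each, all grown in serum-containing medium. CC-885 is a small molecule that binds cereblon, the part of a CUL4 ubiquitin ligase that picks its substrates, and redirects the enzyme to proteins such as the translation termination factor GSPT1. The labels state no dose. Every library is of that single line, and no label tells whether libraries were grown as separate cultures, so p-values measure only how much these libraries spread, and that spread may be technical.

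ATF4 is translated when the initiation factor eIF2 is phosphorylated, and it switches on genes for amino acid synthesis, amino acid import and tRNA charging. Serine is made from a glycolytic intermediate in 3 steps by PHGDH, PSAT1 and PSPH. SHMT enzymes then move a carbon from serine to folate, in mitochondria (SHMT2, MTHFD2, MTHFD1L, ALDH1L2) or in the cytosol (SHMT1, MTHFD1), and that carbon feeds purine, thymidylate and methionine synthesis. In liver-derived cells these routes are known to supply growth and glutathione. In a table of bulk RNA, a lower level cannot be told apart from fewer cells that hold the transcript.

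Because ATF4 with a C/EBP partner is known to bind composite sites whose core can be written TGATGNAA (N is any base), promoters were searched for these letters on both strands, in RefSeq windows running from 250 bases before to 50 after a start (build GRCh38.p14). Of the 30 members 23 had an entry, and 6 of these (26.1%) held the letters, against 4.46% of all 27305 genes with an entry. The 6 matches are shown with their surroundings, since they are the places where the letters occur in genes of this module. Each is read 5′ to 3′ along the gene, with the match in capitals, and TTGCATCA is the same motif on the other strand.
ASNS, chr7:97872443-97872502, minus strand: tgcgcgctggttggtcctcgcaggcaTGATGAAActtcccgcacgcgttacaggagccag
GOT1, chr10:99430789-99430848, minus strand: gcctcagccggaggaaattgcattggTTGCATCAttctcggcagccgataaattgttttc
MTHFD1L, chr6:150866331-150866390, plus strand: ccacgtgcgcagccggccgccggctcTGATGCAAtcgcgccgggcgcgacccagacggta
CHAC1, chr15:40953236-40953295, plus strand: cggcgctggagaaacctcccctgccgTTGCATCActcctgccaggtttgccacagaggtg
JDP2, chr14:75427980-75428021, plus strand: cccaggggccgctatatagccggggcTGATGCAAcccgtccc
BCAT1, chr12:24949116-24949175, minus strand: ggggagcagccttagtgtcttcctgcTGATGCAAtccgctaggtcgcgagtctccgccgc
A match is a description of letters and not of binding. Members were listed as ATF4 targets or related enzymes, so their share with TGATGNAA is not independent of that choice. The E-box CACGTG was in 5 of the 23 (21.7%; 8.77% of all genes with an entry) and the palindrome TGACGTCA in 0 of 23 (2.25% of all genes with an entry). No match of a motif in a member overlapped a match of another. Of the 6 members with TGATGNAA 3 were higher with CC-885, 2 were not called and 1 was too low to test, and of the 17 with an entry but without it 9 were higher, 2 lower and 6 not called.

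After CC-885 most of the module was higher. Of the 29 members with enough counts to test, 16 were called higher and 2 lower by the edgeR quasi-likelihood test (Benjamini-Hochberg adjusted p below 0.05 over 13444 genes), and 11 were not called. That is 55.2% higher and 6.9% lower, while of all tested genes 25.8% were higher and 26.8% lower, or 52.6% in either direction. The median log2 fold change of the 29 was 0.50, against -0.04 over all tested genes. Changes were of moderate size: 6 of the 29 members moved 2-fold or more, all upward. Of all 13444 tested genes 2663 moved as far in either direction, a similar share. The range of the members ran from -0.71 for DDIT4 to 1.49 for CTH. In 17 members every CC-885 library lay above every DMSO library and in 2 every one lay below, which 29.9% and 31.2% of all tested genes did. BCAT1 was the member left untested. Each change is a share of its library, and total RNA per cell was not measured.

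**Figure D1:**
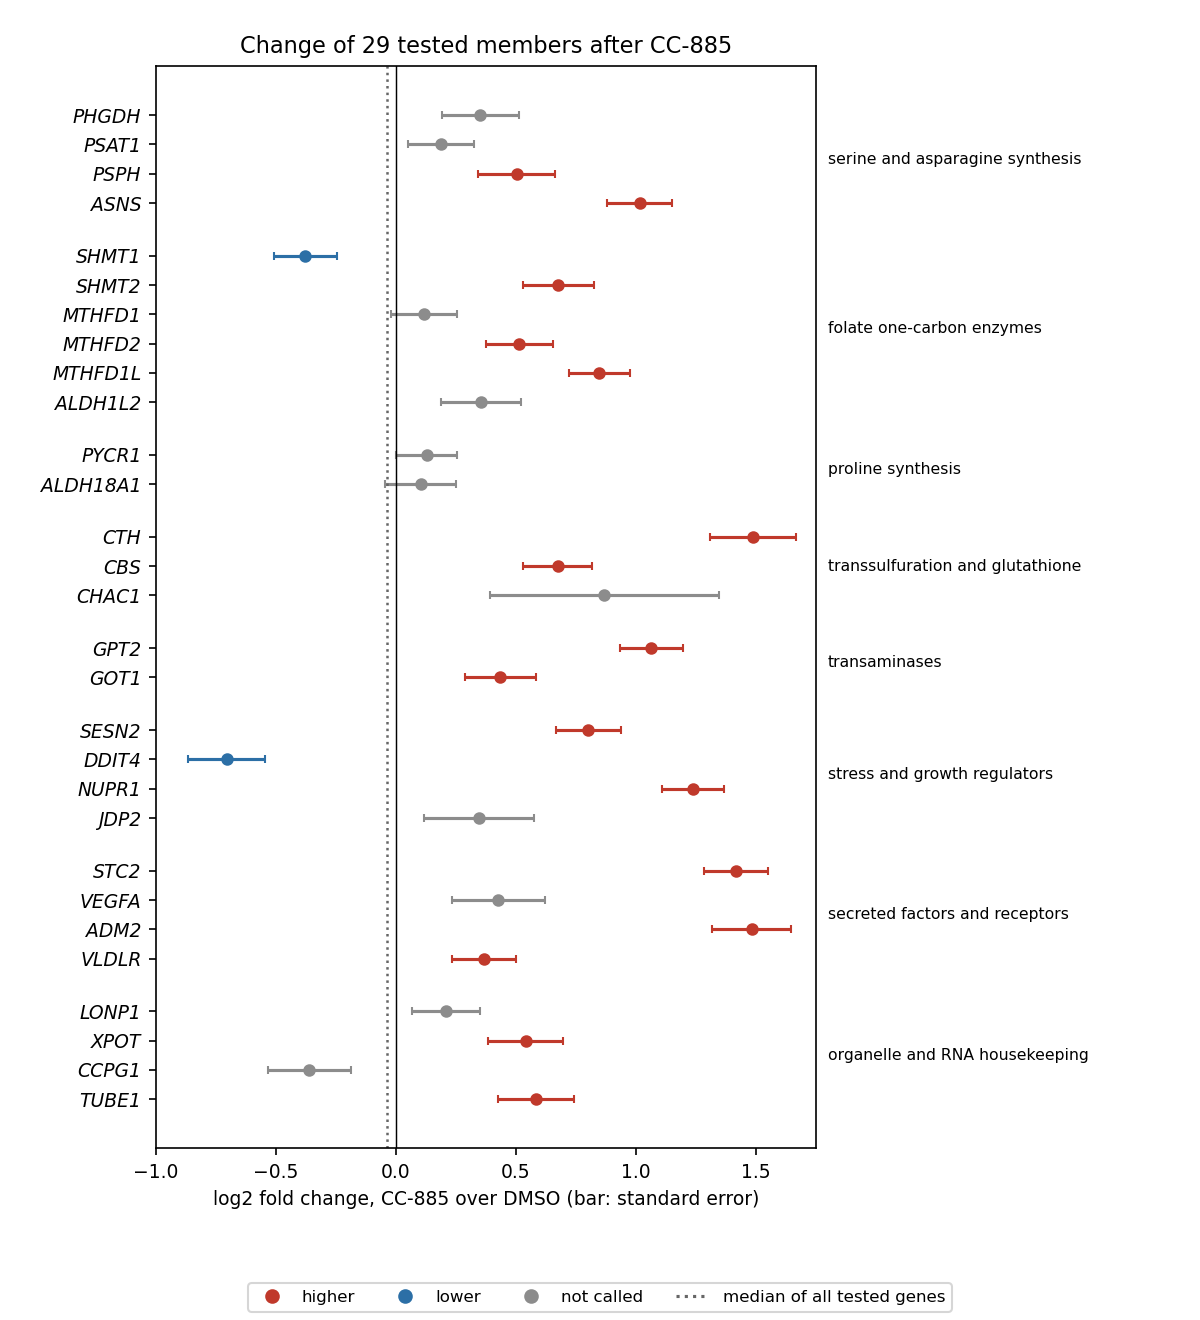
Log2 fold change of CC-885 over DMSO for the 29 tested members, ordered by role, with the standard error as a bar; red and blue points passed the test and the dotted line is the median of all tested genes (-0.04). CTH, ADM2 and STC2 lie farthest to the right, and SHMT1, DDIT4 and CCPG1 lie to the left of 0.

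Asparagine synthesis and the last step of serine synthesis were higher, while the first steps were not called. ASNS (ENSG00000070669), which makes asparagine from aspartate and glutamine, was at 195, 205 and 197 CPM (counts scaled to a common library size with TMM factors) in CC-885 libraries, against 87.3, 113 and 94.4 CPM in DMSO libraries. The CC-885 values lay close together and all were above DMSO, 2.02-fold on average (log2 fold change 1.02, SE 0.14, adjusted p = 0.000112). PSPH, the phosphatase that releases serine, was at 36.0, 30.5 and 29.9 CPM with CC-885 and 20.9, 27.6 and 19.5 CPM with DMSO (log2 fold change 0.50, SE 0.16, adjusted p = 0.0208). PSPH missed the threshold when CC-885 replicate 1 (adjusted p = 0.0846), DMSO replicate 1 (0.0831) or DMSO replicate 3 (0.0521) was left out, and when library size was the only scaling (0.0547). PHGDH, the dehydrogenase that opens the pathway, was at 916, 951 and 753 CPM with CC-885 and 750, 590 and 713 CPM with DMSO. Its groups did not overlap, by the narrowest of margins between CC-885 replicate 3 and DMSO replicate 1, and it was not called (log2 fold change 0.35, SE 0.16, adjusted p = 0.0865), though the DESeq2 Wald test (0.0381) and offsets for GC content and length (0.0124) called it. PSAT1, the aminotransferase of the second step, overlapped between groups, at 319, 291 and 278 CPM with CC-885 and 244, 293 and 243 CPM with DMSO (log2 fold change 0.19, adjusted p = 0.274). Without DMSO replicate 2, its high DMSO library, PSAT1 passed (0.29, adjusted p = 0.0314).

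Among the folate enzymes, 3 of the 4 mitochondrial ones were higher and neither cytosolic one was. SHMT2, the mitochondrial serine hydroxymethyltransferase, was at 403, 398 and 339 CPM in CC-885 libraries and 257, 202 and 254 CPM in DMSO libraries (log2 fold change 0.68, SE 0.15, adjusted p = 0.00278). MTHFD1L, which releases formate from mitochondrial folate, was at 225, 239 and 212 CPM with CC-885 and 132, 114 and 130 CPM with DMSO (0.85, SE 0.13, adjusted p = 0.000265). MTHFD2, the mitochondrial dehydrogenase and cyclohydrolase, was at 228, 260 and 242 CPM with CC-885 and 158, 198 and 155 CPM with DMSO (0.51, SE 0.14, adjusted p = 0.00979). In all 3 enzymes each CC-885 library was above each DMSO library, although DMSO replicate 2 of MTHFD2 came near, and without DMSO replicate 1 the call of MTHFD2 was lost (adjusted p = 0.052).

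The cytosolic SHMT1 went the other way, at 61.3, 61.1 and 52.8 CPM with CC-885 and 80.8, 66.1 and 80.8 CPM with DMSO (log2 fold change -0.38, SE 0.13, adjusted p = 0.0311). This call was weak: leaving out any library other than DMSO replicate 2 ended it (adjusted p between 0.0624 and 0.117). MTHFD1, the cytosolic trifunctional enzyme, was at 374, 377 and 355 CPM with CC-885 and 365, 299 and 355 CPM with DMSO, overlapping groups with a log2 fold change of 0.12 (SE 0.14, adjusted p = 0.492). ALDH1L2, which oxidises formyl folate in mitochondria, was at 25.5, 23.1 and 29.001 CPM with CC-885 and 19.0, 16.997 and 24.8 CPM with DMSO (0.35, SE 0.17, adjusted p = 0.0931), and passed without DMSO replicate 3 (0.52, adjusted p = 0.013) or with the replicate number as a block (0.0356). MTHFD2 shares 27.2% of its annotated exon bases with SLC4A5 on the opposite strand, and no source says that counting used the strand, so its counts are less certain.

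**Figure D2:**
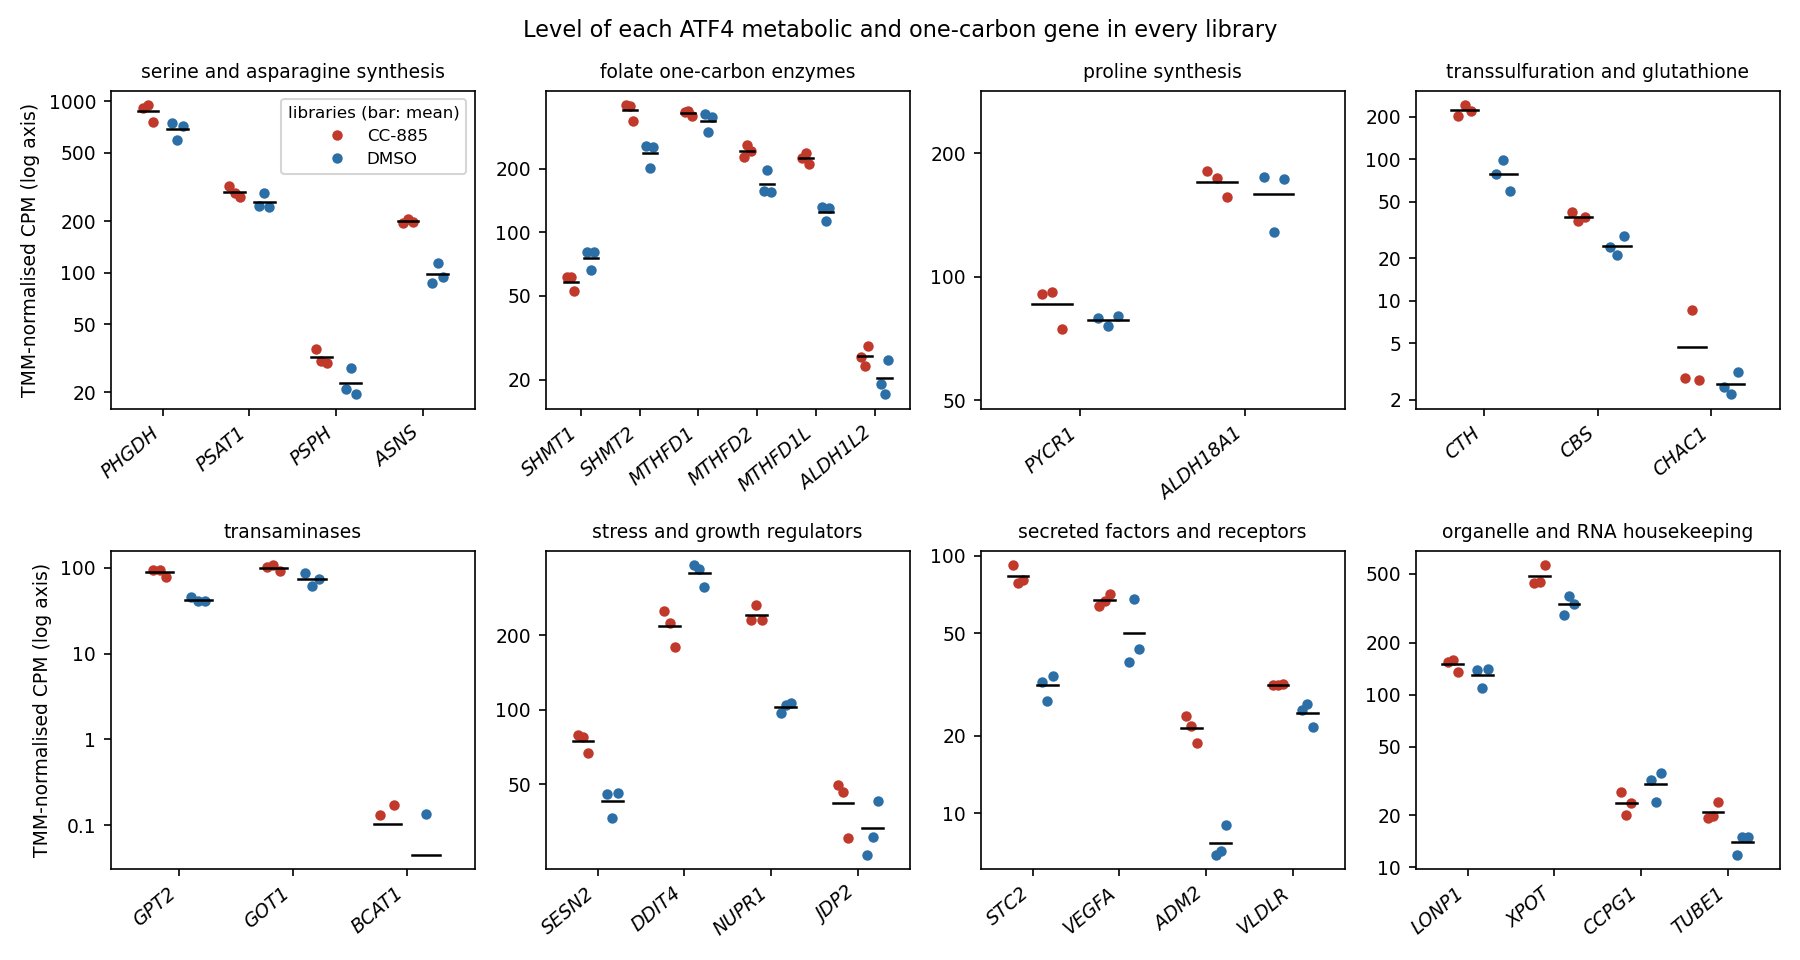
TMM-normalised CPM on a log axis for the 30 members in every library, CC-885 in red left of DMSO in blue, with the mean of 3 libraries as a bar; libraries at 0 (1 CC-885 and 2 DMSO libraries of BCAT1) are not drawn. CHAC1 has a single high CC-885 library (8.55 CPM), and CTH, GPT2, NUPR1, STC2 and ADM2 are separated widely.

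Enzymes that make cysteine from homocysteine rose together. CTH, cystathionine gamma-lyase, had the largest increase of the module, at 204, 243 and 220 CPM in CC-885 libraries and 79.0, 98.8 and 60.0 CPM in DMSO libraries. That was 2.80-fold (log2 fold change 1.49, SE 0.18, adjusted p = 5.34e-05), and its lowest CC-885 library was far above its highest DMSO library. CBS, cystathionine beta-synthase of the step before, was at 42.3, 36.4 and 38.9 CPM with CC-885 and 23.9, 21.2 and 28.6 CPM with DMSO (log2 fold change 0.67, SE 0.15, adjusted p = 0.0025). CHAC1, which breaks down glutathione, is a standard marker of ATF4 activity but was scarce here. It was at 2.83, 8.55 and 2.76 CPM with CC-885 and 2.45, 2.18 and 3.16 CPM with DMSO. CC-885 replicate 2 alone stood out, and the log2 fold change of 0.87 (SE 0.48, adjusted p = 0.169) became 0.11 (adjusted p = 0.75) without it. The DESeq2 Wald test called CHAC1 with all libraries (adjusted p = 0.0455).

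Among the transaminases, GPT2 and GOT1 were higher and BCAT1 was barely detected. GPT2, the mitochondrial alanine aminotransferase, was at 94.6, 94.4 and 77.7 CPM with CC-885 and 45.9, 40.8 and 40.8 CPM with DMSO (log2 fold change 1.06, SE 0.13, adjusted p = 6.51e-05). GOT1, the cytosolic aspartate aminotransferase, was at 104, 108 and 91.4 CPM with CC-885 and 87.2, 61.4 and 75.3 CPM with DMSO (0.43, SE 0.15, adjusted p = 0.0273), and its groups came close. GOT1 missed the threshold when CC-885 replicate 1 (adjusted p = 0.0719) or 2 (0.0955) was left out, and among genes with at least 5 CPM in 3 libraries (0.0517). GOT1 also shares 19.3% of its exon bases with an antisense transcript. BCAT1, the cytosolic branched-chain aminotransferase, had 4, 0 and 6 counts in CC-885 libraries and 0, 5 and 0 counts in DMSO libraries, where 3 counts in the deepest and shallowest library are 0.0754 and 0.0986 CPM. No fold is given for it. Neither proline enzyme was called. PYCR1, the reductase of the last step, was at 90.9, 91.7 and 74.7 CPM with CC-885 and 79.5, 75.8 and 80.3 CPM with DMSO (0.13, adjusted p = 0.418), and passed only with offsets for GC content and length (0.38, adjusted p = 0.00452). PYCR1 shares 15.6% of its exon bases with an antisense transcript and 14.1% with another gene on its strand. ALDH18A1, the synthase of the first step, had log2 fold change 0.10 (SE 0.15, adjusted p = 0.583), with means of 171 ± 12.8 CPM in CC-885 libraries and 159 ± 26.1 CPM in DMSO libraries (SD, n = 3 each), and its sign turned without DMSO replicate 2 (-0.02).

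Regulators of growth and stress diverged. NUPR1, a small chromatin-associated stress protein, was at 229, 265 and 230 CPM with CC-885 and 96.5, 104 and 107 CPM with DMSO (log2 fold change 1.24, SE 0.13, adjusted p = 2.09e-05). SESN2, a leucine sensor that restrains mTORC1, was at 78.7, 77.7 and 66.8 CPM with CC-885 and 45.6, 36.5 and 45.9 CPM with DMSO (0.80, SE 0.14, adjusted p = 0.00056). DDIT4, which restrains the same kinase through TSC2 and is known to answer to hypoxia, glucocorticoids and p53 as well, was lower: 250.1, 225 and 178 CPM with CC-885 and 383, 371 and 312 CPM with DMSO. Every CC-885 library of DDIT4 was below every DMSO library (log2 fold change -0.71, SE 0.16, adjusted p = 0.0032). DDIT4 shares 41.2% of its exon bases with DDIT4-AS1 on the opposite strand. JDP2, an AP-1 repressor, was at 49.5, 46.5 and 30.3 CPM with CC-885 and 25.9, 30.6 and 42.8 CPM with DMSO, groups that overlapped in part (0.35, SE 0.23, adjusted p = 0.233). It passed without DMSO replicate 3 (0.57, adjusted p = 0.0225).

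Of the secreted factors and receptors, STC2 and ADM2 rose most. STC2, the glycoprotein hormone stanniocalcin 2, was at 91.7, 78.5 and 80.5 CPM with CC-885 and 32.4, 27.3 and 34.2 CPM with DMSO, 2.67-fold (log2 fold change 1.42, SE 0.14, adjusted p = 1.13e-05). ADM2, the peptide intermedin, was at 23.7, 21.7 and 18.8 CPM with CC-885 and 6.89, 7.11 and 8.99 CPM with DMSO, 2.79-fold (1.48, SE 0.17, adjusted p = 3.33e-05). Both were widely separated. VLDLR, the receptor of very-low-density lipoprotein, was nearly equal in the CC-885 libraries, at 31.4, 31.3 and 31.8 CPM, against 25.1, 26.6 and 21.5 CPM with DMSO (0.37, SE 0.13, adjusted p = 0.0351). Its call was lost in 8 of 15 alternatives: without any library other than DMSO replicate 2 (adjusted p between 0.0774 and 0.131), with library size only (0.0902), with the CPM filter (0.0749) and under GC and length offsets (0.354). VEGFA, the angiogenic growth factor, was at 63.8, 66.4 and 70.8 CPM with CC-885 and 38.6, 67.8 and 43.2 CPM with DMSO (0.43, SE 0.19, adjusted p = 0.0871). DMSO replicate 2 alone reached the CC-885 level, and without it VEGFA passed (0.72, adjusted p = 0.000795), as it did with the replicate number as a block (adjusted p = 0.0392).

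The remaining members serve organelles and RNA transport. XPOT, which exports tRNA from the nucleus, was at 445, 447 and 562 CPM with CC-885 and 289, 373 and 337 CPM with DMSO (log2 fold change 0.54, SE 0.16, adjusted p = 0.013), which missed the threshold when CC-885 replicate 3 (adjusted p = 0.0661) or DMSO replicate 1 (0.0718) was left out. TUBE1, the centriolar epsilon-tubulin, was at 19.2, 19.7 and 23.8 CPM with CC-885 and 11.8, 15.1 and 15.0 CPM with DMSO (0.58, SE 0.16, adjusted p = 0.00872). Both genes had groups that did not overlap. LONP1, the mitochondrial protease, was at 155, 159 and 136 CPM with CC-885 and 139, 110 and 140.0 CPM with DMSO (0.21, adjusted p = 0.231), and passed only with offsets for GC content and length (0.37, adjusted p = 0.00657). CCPG1, an autophagy receptor of the endoplasmic reticulum, leaned lower, at 27.4, 19.9 and 23.5 CPM with CC-885 and 32.0, 23.8 and 35.0 CPM with DMSO (-0.36, SE 0.17, adjusted p = 0.101). It passed as lower without DMSO replicate 2 (-0.50, adjusted p = 0.0233), with the replicate number as a block (0.0462) and under GC and length offsets (-0.62, adjusted p = 0.0337). CCPG1 shares 38.7% of its exon bases with a readthrough transcript on its own strand, and ASNS 44.6% with another transcript on its strand.

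Compared per length, PSAT1, PHGDH and DDIT4 led while PSPH ranked 19 with CC-885 and 18 with DMSO. Per kilobase of annotated exon, PSAT1 was highest with CC-885 (135 CPM per kb), followed by DDIT4 (106), PHGDH (94.7), CTH (92.1) and SHMT2 (78.5). DDIT4 was highest with DMSO (173 CPM per kb), and CTH ranked 4 among the 30 with CC-885 and 9 with DMSO. When the longest annotated transcript was used as the length, PHGDH ranked 1 in both groups and CTH 5 with CC-885 and 11 with DMSO, so the order at the top depends on the length chosen. BCAT1 and CHAC1 were lowest by either length in both groups.

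Whether a member and its relative moved apart was asked with the log2 ratio of their CPM in each library, for 9 pairs in which both genes could be tested. In 5 pairs the groups did not overlap, which for 3 against 3 libraries gives the smallest p the exact permutation test allows (two-sided p = 0.1, adjusted over the 9 pairs 0.18), so no pair could pass. SHMT2 over SHMT1 was at 2.72, 2.70 and 2.68 in CC-885 libraries and 1.67, 1.61 and 1.65 in DMSO libraries, a difference of 1.05 that was far wider than the spread within either group. MTHFD1L over MTHFD1 was at -0.73, -0.65 and -0.74 in CC-885 libraries and -1.46, -1.40 and -1.45 in DMSO libraries, a difference of 0.73. MTHFD2 over MTHFD1 overlapped, at -0.71, -0.53 and -0.55 in CC-885 libraries and -1.21, -0.59 and -1.19 in DMSO libraries (difference 0.40, exact permutation p = 0.2, adjusted 0.225), with DMSO replicate 2 close to the CC-885 libraries.

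The widest difference among the pairs was that of GPT2 over GPT, at 8.19, 8.11 and 8.39 in CC-885 libraries and 4.48, 4.01 and 4.601 in DMSO libraries. The cytosolic enzyme gene GPT fell to 0.242 ± 0.0596 CPM with CC-885, against 2.04 ± 0.427 CPM with DMSO (SD, n = 3 each; log2 fold change -3.05, adjusted p = 3.48e-05), and at 6 to 11 counts per CC-885 library this ratio depends on the added prior count. SESN2 over SESN1 was at 2.85, 2.90 and 2.72 in CC-885 libraries and 0.68, 0.05 and 0.95 in DMSO libraries (difference 2.26). SESN1, a p53-regulated sestrin, fell to 10.4 ± 0.412 CPM with CC-885, against 29.1 ± 5.76 CPM with DMSO (-1.48, adjusted p = 3.29e-05). GOT1 over the mitochondrial GOT2 was at -1.03, -0.92 and -0.96 in CC-885 libraries and -1.38, -1.47 and -1.50 in DMSO libraries (difference 0.48), also without overlap.

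Over all 20 tested relatives of the members, paired or not, 5 were higher (25.0%, near the 25.8% of all tested genes) and 8 lower (40%, against 26.8%), with a median log2 fold change of -0.11; ADM and VEGFC, a lymphatic growth factor (1.30, adjusted p = 0.00117), were higher with the smallest p. The ratio of ADM2 to ADM overlapped between groups as well. ADM2 over ADM differed by -0.25 (adjusted exact permutation p = 0.225), and ADM itself was higher, at 40.9 ± 3.32 CPM in CC-885 libraries and 12.3 ± 1.36 CPM in DMSO libraries (log2 fold change 1.73, adjusted p = 4.43e-06). PRODH, which breaks proline down again and is not in a pair, fell to 1.02 ± 0.109 CPM with CC-885, against 5.60 ± 0.163 CPM with DMSO (-2.45, SE 0.20, adjusted p = 4.43e-06). The pairs of BCAT1, ALDH1L2 and STC2 with BCAT2, ALDH1L1 and STC1 were not compared, since BCAT1, ALDH1L1 and STC1 were too low to test. BCAT2, the mitochondrial branched-chain aminotransferase, was lower (-0.58, adjusted p = 0.0119), which missed the threshold when CC-885 replicate 3 was left out (adjusted p = 0.0546).

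**Figure D3:**
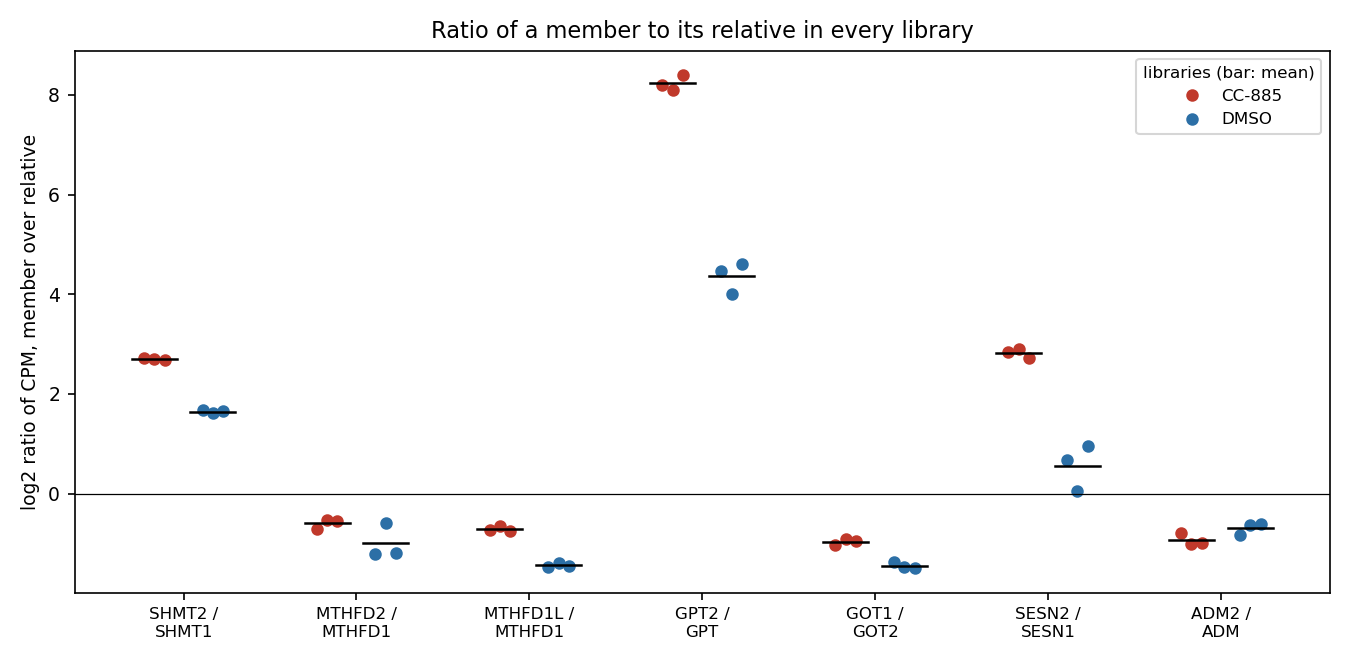
For 7 of the 9 pairs, the log2 ratio of the CPM of a member to that of its relative in every library, CC-885 in red left of DMSO in blue, with the mean of 3 libraries as a bar. The groups are apart for SHMT2 over SHMT1, MTHFD1L over MTHFD1, GPT2 over GPT, GOT1 over GOT2 and SESN2 over SESN1, and overlap for MTHFD2 over MTHFD1 and ADM2 over ADM.

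Genes around the module were counted in lists of their own, beside the 25.8% of all tested genes called higher and the 26.8% called lower. Of 13 kinases, transcription factors and feedback regulators of the integrated stress response, 10 were higher (76.9%) and 0 lower by the edgeR test. Their median log2 fold change was 1.14. ATF4 (ENSG00000128272) was at 744, 852 and 735 CPM with CC-885 and 286, 306 and 295 CPM with DMSO, an increase of 1.39 on the log2 scale (adjusted p = 1.62e-05). DDIT3, which encodes CHOP, rose from 6.06, 9.23 and 7.30 CPM in DMSO libraries to 25.5, 19.4 and 19.1 CPM after CC-885. Its log2 fold change was 1.501 (adjusted p = 8.17e-05). DDIT3 shares 27.2% of its exon bases with MARS1 on the opposite strand. MARS1 was more abundant and rose too, from a mean of 93.1 CPM (DMSO) to 235 CPM (CC-885). Its log2 fold change was 1.34 (adjusted p = 0.000192). No source says that counting used the strand, and how much of the DDIT3 count came from MARS1 was not tested. ATF3 (4.62) and PPP1R15A (3.51) moved farther than any of the 30 members. Of 11 amino acid transporters listed as ATF4 targets 7 were higher (63.6%) and 0 lower (median 0.63). The smallest p-values were those of SLC7A11, the cystine carrier (1.02), and SLC7A1, a carrier of basic amino acids (1.02). The DESeq2 Wald test called 0 lower in both lists as well. At an unadjusted p below 0.05, 1 regulator was lower, EIF2AK1, the heme-regulated eIF2 kinase (-0.33, adjusted p = 0.0558; named after its value was seen), and 0 transporters were. With library size only, the CPM filter, halved counts or DMSO replicate 2 left out 1 regulator was called lower, and under GC and length offsets 3 were. Of 20 aminoacyl-tRNA synthetases listed as ATF4 targets 10 were higher (50.0%) and 1 lower (5.0%), with a median of 0.43. GARS1 (1.26) and CARS1 (1.19) were among the higher by smallest p, and QARS1 was lower (-0.43). The number higher was 6 without CC-885 replicate 3 or DMSO replicate 1, and QARS1 lost its call without any CC-885 library (adjusted p between 0.0583 and 0.0813) or without DMSO replicate 1 (0.107).

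Genes of the folate and methionine cycles and of nucleotide synthesis were counted beside the 25.8% of all tested genes called higher and the 26.8% called lower. Of 20 tested genes of the folate and methionine cycles outside the module 1 was higher and 8 were lower, 5.0% and 40% of the list (median log2 fold change -0.25). The higher gene was SLC25A32, the mitochondrial folate carrier, at 52.4, 59.0 and 57.7 CPM with CC-885 and 29.2, 36.7 and 31.9 CPM with DMSO (0.79, SE 0.13, adjusted p = 0.000469); it shares 69.7% of its exon bases with another gene on its strand. MAT2A, which makes S-adenosylmethionine, was at 314, 308 and 320 CPM with CC-885 and 604, 650 and 613 CPM with DMSO (-0.99, SE 0.13, adjusted p = 0.000111). Its partner subunit MAT2B was lower too (-0.66, adjusted p = 0.00219). Of 14 genes of purine and thymidylate synthesis 3 were lower, 21.4% and near the share of all tested genes, and 1 was higher (7.14%; median log2 fold change -0.16). The higher gene was GMPS (0.69, adjusted p = 0.000983), and the lower gene with the smallest p was IMPDH2 (-0.75, adjusted p = 0.000563), which opens guanine nucleotide synthesis. Without DMSO replicate 2, 4 of these genes were higher.

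VEGFA, DDIT4, STC2 and ADM2 are also known to answer to hypoxia, so 15 hypoxia targets were counted. Of 14 tested, 6 were higher (42.9%, against 25.8% of all tested genes) and 3 lower (21.4%, against 26.8%), with a median log2 fold change of 0.30. The lower count was near the share of all tested genes. ADM (1.73) and the histone demethylase KDM3A (1.17) were higher, and the glycolytic enzyme PGK1 (-0.57) and the mitophagy receptor BNIP3 (-0.53) lower. PGK1 missed the threshold when CC-885 replicate 1 or 3, or DMSO replicate 1 or 2, was left out (adjusted p between 0.0536 and 0.12). Only 1 hypoxia target was lower without CC-885 replicate 3 or DMSO replicate 1.

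**Figure D4:**
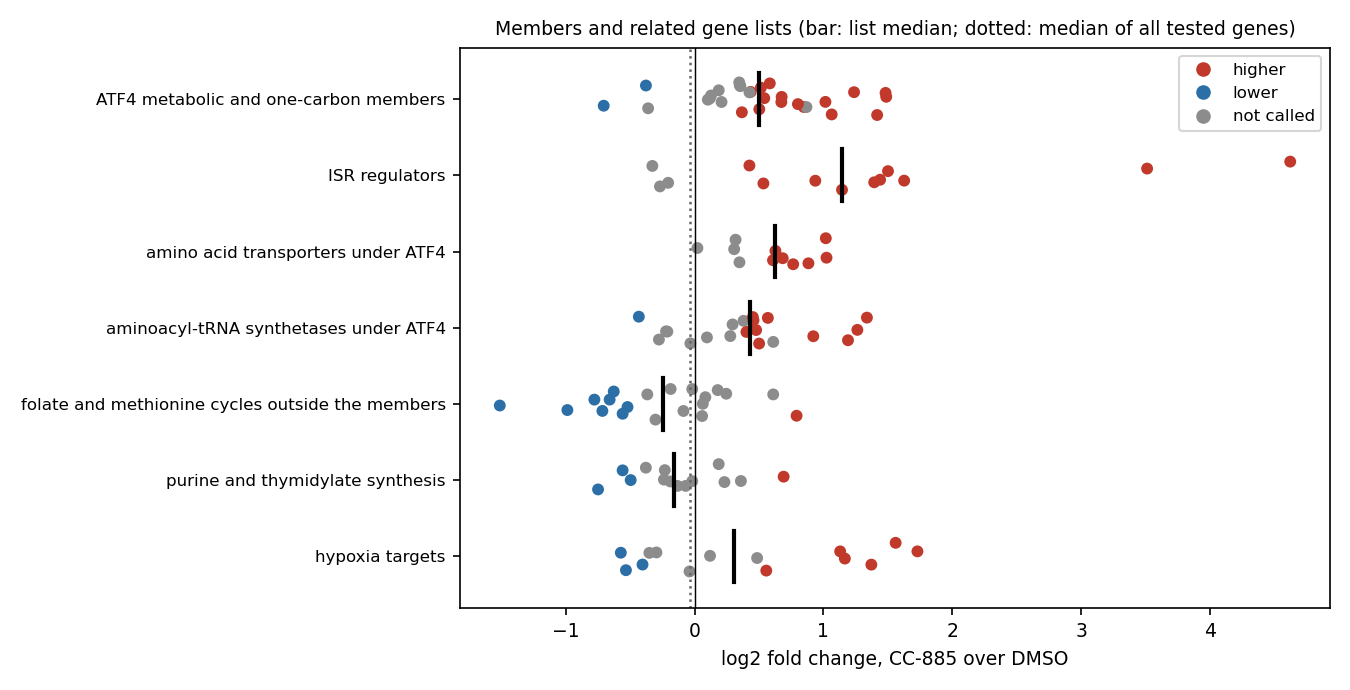
Log2 fold change of CC-885 over DMSO for each tested gene of the module (top row) and of 6 related lists, coloured by call, with each list's median as a bar and the median of all tested genes (-0.04) dotted. The medians run from 1.14 for the stress response regulators to -0.25 for the folate and methionine genes outside the module.

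The libraries held 30432509 to 39809131 counts. Libraries of 1 group correlated at 0.977 or more in log2 CPM, and libraries of different groups at 0.946 or less. Defining hepatocyte genes were largely absent from this line: of 14 markers 7 were at 0 in every library (among them ALB, AFP, APOB, TTR, GPC3 and FOXA2) and 11 stayed under 1 CPM. The summed level of the 14 was 1361 to 1655 CPM with CC-885 and 1806 to 2211 CPM with DMSO, nearly all from the keratins KRT8 and KRT18. KRT8 was called lower (log2 fold change -0.49, adjusted p = 0.0236; lost without any CC-885 library or without DMSO replicate 1, adjusted p between 0.0595 and 0.117). HNF4A, at 0.214 ± 0.183 CPM in CC-885 libraries and 1.25 ± 0.184 CPM in DMSO libraries (SD, n = 3 each), was lower as well (-2.50, adjusted p = 0.00156). Of 10 markers of other liver cells PTPRC, LRAT and CD3E were at 0 in every library, and the sum was 147 to 178 CPM with CC-885 and 110 to 121 CPM with DMSO, mostly COL1A1 (0.58, adjusted p = 0.00327). VWF was higher (1.01), and DCN (-3.23) and RGS5 (-0.88) were lower. DCN had only 4, 5 and 4 counts in CC-885 libraries and 55, 49 and 28 counts in DMSO libraries, so the size of its fold is uncertain. VWF, under 3 CPM in every library, missed the threshold without CC-885 replicate 1, DMSO replicate 1 or DMSO replicate 2 (adjusted p between 0.0508 and 0.116). The part of these shifts in the values of the module was not tested.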

How the data were processed

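Gene expression was measured in 6 libraries, 3 per group. Total RNA was extracted with a Qiagen kit and libraries were made with an mRNA kit, per the labels' protocols. The authors deposited whole-number counts per human Ensembl gene with no normalization. Aligner, counter and annotation: not given in the sources used here. Mouse builds GRCm38 and mm10 are named in the submitters' processing notes although every gene ID is human, and the table holds no coordinates. Of counts from 1 to 20, 66.8% were even, and the counted unit is not stated, so it is unknown whether reads or fragments were counted.

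Symbols came from a table of gene names (20148 rows) or GENCODE 29 (76). edgeR 4.0.16 (R 4.3.3) was run with TMM factors, filterByExpr (minimum count 10), robust dispersions and no covariate, calling genes at an adjusted p below 0.05 over 13444 genes; adjusted p-values are from it unless another test is named. The SE of a log2 fold change is its size divided by the root of the F statistic. The script was tested on simulated data in which few genes changed, up or down at random. It kept the share of false calls under the threshold when counts were drawn with trended dispersions. The share exceeded it when counts were drawn with gene-wise dispersions, so calls close to the threshold are less certain than their adjusted p. Far more genes were called in the real data, so the simulated shares may not carry over to them. Ratios of pairs used log2 CPM with prior count 2, and p-values were adjusted over 9 pairs, of which 7 are given. Some genes of the lists are not reported here by name. The genes, lists and pairs were chosen with earlier results of these data known. Named genes were all members, relatives in pairs, ATF4, DDIT3 and up to 2 higher and 2 lower genes of each list by smallest p. MARS1 was named for its overlap with DDIT3. Exon overlaps are from GENCODE 29. Alternatives were DESeq2 1.42.0 size factors and Wald test, limma-voom (limma 3.58.1), library size only, no filter, at least 5 CPM in 3 libraries, a replicate block and each library left out; offsets for GC content and length and halved counts were added after seeing the data.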

Additional observations from a re-analysis of the deposited data

How the results depend on the processing

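Across the 15 alternatives 11 members were higher in each (ASNS, SHMT2, MTHFD1L, CTH, CBS, GPT2, SESN2, NUPR1, STC2, ADM2 and TUBE1) and DDIT4 was lower in each. The number of members called higher ran from 12 to 18, and that called lower from 1 to 3. With a library left out it was 1 to 3, at 1 without any library other than DMSO replicate 2. The number of genes called ran from 5805 to 7691. Direction turned for genes that were not called in any of these settings. MTHFD1 had a log2 fold change of -0.0201 with offsets for GC content and length. With a library left out ALDH18A1 ranged from -0.0177 (without DMSO replicate 2) to 0.181 and GOT2 from -0.145 to 0.0501 (without DMSO replicate 1; 0.0356 without CC-885 replicate 3). With the GC and length offsets GOT2 was at 0.046. The cause of these changes was not tested. With the replicate number as a block, 18 members were higher and 3 lower. Deviations from the group means correlated weakly between same-numbered libraries (0.0958, 0.0311 and 0.0722), and 4 of 6 libraries were closest to their own number. No label says whether the numbers mark a pairing, and these values cannot decide it. Among related lists, called-lower genes of purine and thymidylate synthesis were 5 with library size only or the CPM filter, called-lower tRNA synthetases 4 with GC and length offsets, and called-higher relatives 3 with the CPM filter. Depth limits BCAT1, CHAC1, GPT, HNF4A and DCN.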
